A study of Mus musculus with 8 samples.

Results

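The genes described here are the 37 aminoacyl-tRNA synthetase genes of a mouse heart RNA sequencing series that were listed by symbol: 19 cytosolic enzymes, 16 mitochondrial enzymes and the 2 scaffold proteins Aimp1 and Aimp2. All 37 matched an Ensembl gene ID among the 54752 in the deposited count table. The study followed the postnatal maturation of the heart in mice that carried floxed alleles of Carm1, an arginine methyltransferase (genotype Carm1fl/fl in every group). Control mice were injected with AAV-GFP and Carm1 KO mice with AAV-CRE, both of serotype AAV9, and cardiomyocytes were isolated on a Langendorff system at the times labelled 1w and 3w. There were 4 groups of 2 libraries: control at 1w, KO at 1w, control at 3w and KO at 3w. The treatment labels give injection at postnatal day 1 and 2 for the 2 libraries of each 1w group and at postnatal day 3 and 4 for those of each 3w group, and nothing else says whether both libraries in a group are from different mice. P-values therefore reflect only the differences among these libraries, possibly technical ones. The hearts were mosaic, so that infected cells lay among others, and no sorting is described. Mice without floxed alleles that received Cre were not part of these groups, so Cre as such and the loss of Carm1 cannot be told apart.

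Aminoacyl-tRNA synthetases join each amino acid to its transfer RNA and so supply every step of protein synthesis. Cells keep separate sets for the cytosol and for the mitochondria, and the mitochondrial set, although encoded in the nucleus, serves only the few proteins made from mitochondrial DNA, all of them in oxidative phosphorylation. Several cytosolic enzymes sit together in the multi-synthetase complex, which Aimp1 and Aimp2 hold together. Kars and Gars each make a cytosolic and a mitochondrial enzyme from 1 gene. When uncharged tRNA builds up, or the mitochondria are under stress, the transcription factor Atf4 raises genes for amino acid supply, among them many cytosolic synthetases. The heart depends on mitochondrial translation, and inherited defects of mitochondrial synthetases such as Aars2 cause cardiomyopathy.

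The libraries held 20818285 to 53671626 gene counts, of which mitochondrially encoded genes took 40.7 to 47.8%. Every one of the 37 genes passed the filter on low counts, with between 69 counts (Pars2) and 4820 counts (Iars2) in a library. In control hearts Carm1 stood at 40.5 and 39.1 CPM (counts scaled to 1000000 per library, with TMM factors) at 1w and at 39.9 and 39.3 at 3w. In KO hearts it stood at 22.2 and 22.4 CPM at 1w and 17.3 and 17.8 at 3w, below every control library. Summed counts of 4 Y-linked genes were 0 to 3 in the control libraries at 1w and the KO libraries at 3w, against 4282 to 6765 in the control libraries at 3w and the KO libraries at 1w. The KO effect at 1w alone, the KO effect at 3w alone, the difference between those effects and the change from 1w to 3w within a genotype therefore coincide with a difference in these transcripts, and the 2 cannot be told apart. The KO effect over both times sets 1 group with and 1 group without them on each side. Among the cardiomyocyte markers, Actc1 and Pln were listed at 0 in every library, and the other 6 (Myh6, Tnnt2, Tnni3, Ttn, Ryr2 and Myl2) summed with them to 32690.3 to 72184 CPM.

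Per kilobase of exon, the cytosolic enzymes were the more abundant class in every group. The median level of the 19 cytosolic genes at 1w was 7.92 RPKM (CPM per kilobase of exon) in control and 8.03 in KO, and at 3w it was 9.72 and 9.91. For the 16 mitochondrial genes it was 2.71, 2.73, 4.73 and 3.79 RPKM in the same order. Gars, the glycyl enzyme, was at the top of the cytosolic order in all 4 groups (20.3 to 21.5 RPKM), followed by Kars, the lysyl enzyme (15.0 to 20.1), and the asparaginyl enzyme Nars (13.2 to 15.0). At the foot stood Cars, the cysteinyl enzyme (1.79 to 2.43 RPKM), below Farsa (3.05 to 3.39 RPKM), the alpha subunit of the phenylalanyl enzyme. Its partner Farsb, the beta subunit, was at 8.88 and 9.95 RPKM at 1w in control and KO and at 14.7 and 14.1 at 3w, so the 2 subunit messages did not keep 1 ratio. Among the mitochondrial genes, Iars2 led in each group (8.05 to 12.9 RPKM) and Mars2, the methionyl enzyme, was last (0.786 to 1.10 RPKM). Of the 15 pairs of neighbours in the mitochondrial order, 5 or 6 overlapped in their libraries in each group, and of the 18 cytosolic pairs 9 overlapped in control at 1w and 3 or 4 in the other groups. Where such neighbours overlap, their order is not separated by the spread between libraries.

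**Figure D1:**
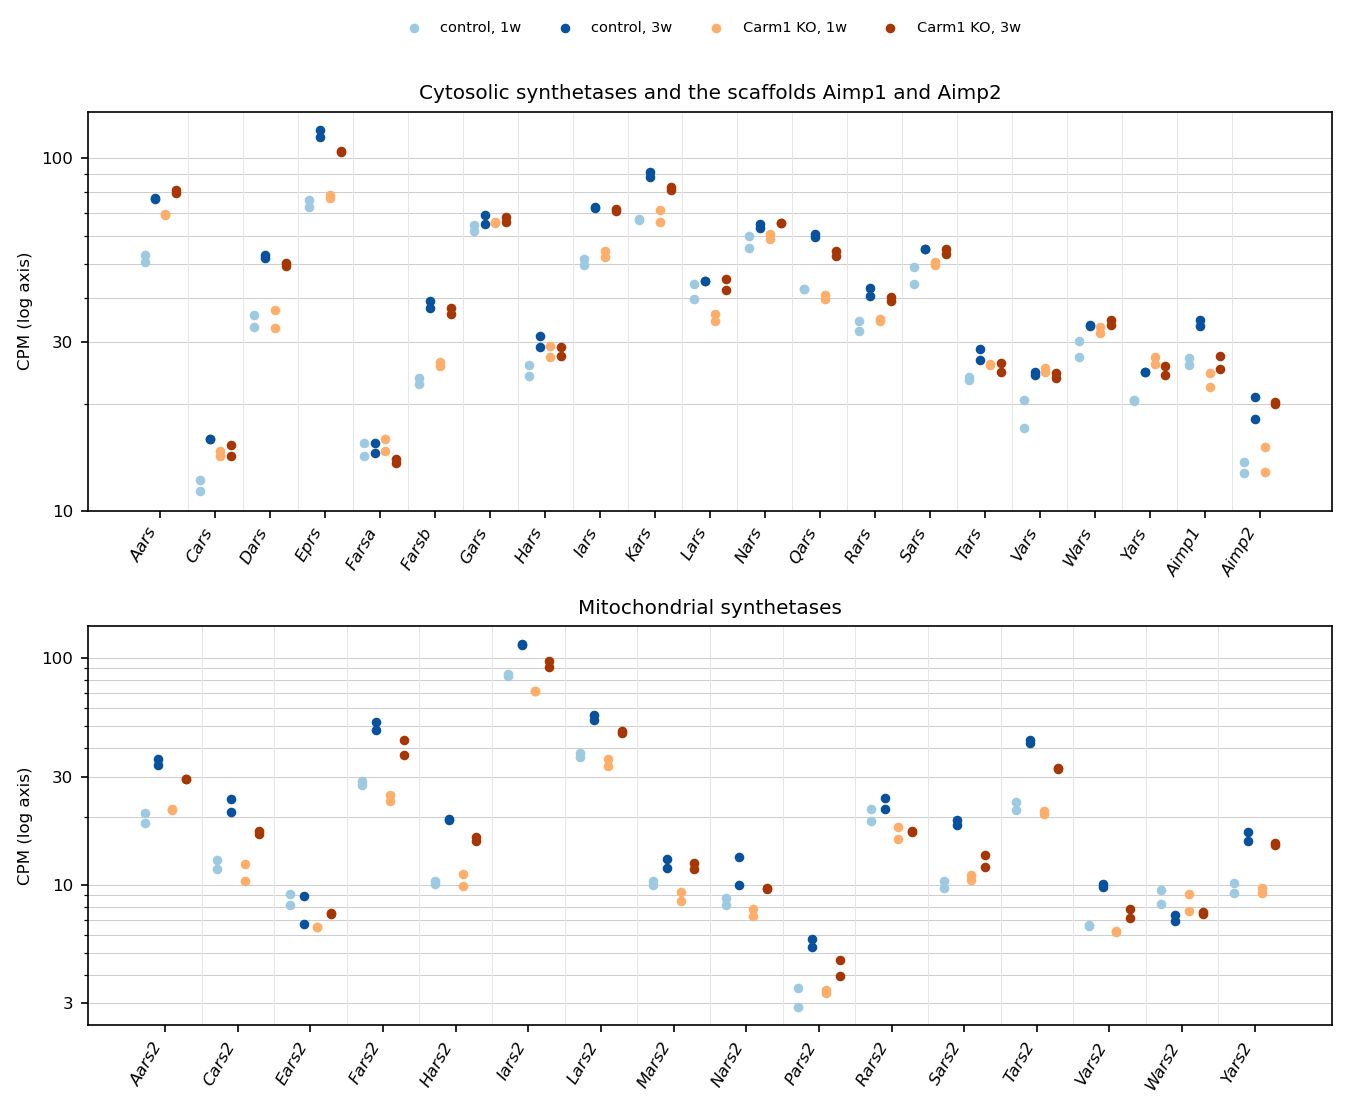
Levels of the 37 genes in each of the 8 libraries, as CPM on a log axis, with cytosolic enzymes and scaffolds above and mitochondrial enzymes below. The points of a gene are the 2 libraries of each group: Eprs and Iars2 stand highest on this scale, which is not corrected for gene length, and Pars2 lowest.

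Both classes rose between 1w and 3w in control hearts, the mitochondrial one by more. In this comparison 70.8% of all genes tested were called, 34.9% higher and 36% lower, at an adjusted p under 0.05 by edgeR. Of the cytosolic genes 16 of 19 rose and 0 fell (0 also at an unadjusted p under 0.05 and by DESeq2), with a median log2 fold change of 0.33. Of the mitochondrial genes 13 of 16 rose and 1 fell, with a median of 0.67. The median over all genes tested was -0.03 (log2). The 1w and 3w libraries did not overlap in 35 of the 37 genes in control and 33 in KO, beside 83.3% of all genes tested in each genotype.

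Farsb showed the largest rise of the cytosolic genes in control hearts. It went from 22.9 and 23.7 CPM at 1w to 37.6 and 39.4 at 3w, a log2 fold change of 0.72 ± 0.057 (SE; edgeR adjusted p = 1.0e-17). Eprs, a single protein that charges both glutamate and proline tRNAs, rose from 75.8 and 72.8 to 115 and 120.3 CPM (0.66 ± 0.040, edgeR adjusted p = 3.1e-23). In each of these genes both 3w libraries lay above both 1w libraries. Dars, the aspartyl enzyme, rose from 35.8 and 33.2 to 53.0 and 52.1 CPM (log2 fold change 0.61). Aars, the alanyl enzyme, rose from 53.1 and 50.8 to 76.9 and 76.7 CPM (0.57). The isoleucyl enzyme Iars rose from 51.8 and 49.6 to 72.7 and 72.2 CPM (0.52), and the glutaminyl enzyme Qars from 42.6 and 42.4 to 59.7 and 60.7 CPM (0.50). None of these 4 genes overlapped between the times either. Iars has a processed pseudogene copy, Gm4849, which is 96.0% identical over 1656 bases and held 174 counts over all libraries, against 16620 for Iars. The other 10 cytosolic genes that rose did so by 0.15 (Nars) to 0.45 (Cars) on the log2 scale. The rise of Nars was not called without replicate 1 of control at 1w (0.10, edgeR adjusted p = 0.0833). Farsa (0.01), Gars (0.08) and the leucyl enzyme Lars (0.10) were not called.

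Among the mitochondrial genes in control hearts, Tars2, the threonyl enzyme, rose the most. It went from 23.1 and 21.4 CPM at 1w to 42.0 and 43.6 at 3w (log2 fold change 0.95 ± 0.057, edgeR adjusted p = 4.5e-23). The histidyl enzyme Hars2 rose from 10.1 and 10.4 to 19.5 and 19.4 CPM (0.93 ± 0.080, edgeR adjusted p = 3.0e-16). Hars2 lies head to head with its cytosolic counterpart Hars and shares 195 exon bases with it on the opposite strand, and the counting strand is not given in the sources used here. Sars2, the seryl enzyme, went from 9.65 and 10.4 to 19.3 and 18.3 CPM (0.91 ± 0.081, edgeR adjusted p = 1.5e-15). Cars2, the cysteinyl enzyme, went from 11.8 and 12.9 to 23.9 and 21.0 CPM (0.86). Fars2, which charges phenylalanine as a single chain, rose from 28.6 and 27.5 to 52.4 and 48.3 CPM (0.85). Aars2, the alanyl enzyme, rose from 18.8 and 20.7 to 33.9 and 36.0 CPM (0.81). All 6 had both 3w libraries above both 1w libraries. The remaining 7 that rose lay between 0.27 (Mars2) and 0.78 (Pars2, the prolyl enzyme). Wars2, the tryptophanyl enzyme, went the other way, from 9.53 and 8.25 to 7.39 and 6.93 CPM (-0.29 ± 0.10, edgeR adjusted p = 0.011). That fall was not called by DESeq2 (adjusted p = 0.0922), without replicate 1 of control at 1w (edgeR adjusted p = 0.143) or without replicate 2 of control at 3w (edgeR adjusted p = 0.0981). Ears2 (-0.10) and Rars2 (0.15) were not called.

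In the KO hearts the same 13 mitochondrial genes rose between 1w and 3w, with a median over the 16 of 0.42. The cytosolic rise covered 11 of 19 genes, with a median of 0.13, and no gene of either class was called lower (by edgeR; 1 cytosolic and 0 mitochondrial genes at an unadjusted p under 0.05, and 0 by DESeq2). Over all genes tested 67.9% were called in this comparison, 33.2% higher and 34.6% lower. Of the 16 cytosolic genes that rose in control, 10 also rose in KO. The cytosolic genes with the largest change were Dars (33.0 and 37 to 50.3 and 49.4 CPM, log2 fold change 0.51), Farsb (25.7 and 26.4 to 36.2 and 37.5 CPM, 0.50) and Eprs (76.9 and 78.7 to 105 and 104 CPM, 0.43). Qars (0.42), Iars (0.41) and Lars (0.31) followed. Lars, which is also known as a leucine sensor, went from 36.2 and 34.4 to 42.3 and 45.3 CPM.

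The enzymes for cysteine, histidine, threonine, valine, tryptophan and tyrosine, which rose in control, were not called in KO hearts, where Cars was at 0.02, Hars at 0.00, Tars at -0.02, Vars at -0.06, Wars at 0.07 and Yars at -0.09. Fars2 showed the largest mitochondrial rise in KO, from 24.8 and 23.4 to 37.4 and 43.6 CPM (0.75 ± 0.061, edgeR adjusted p = 8.1e-15). Yars2, the tyrosyl enzyme, rose from 9.73 and 9.18 to 15.0 and 15.3 CPM (0.68), and Tars2 from 21.1 and 20.5 to 32.6 and 32.5 CPM (0.65). Hars2 (0.60), Cars2 (0.58) and Mars2 (0.46) came next. In Sars2 the rise was 0.24 ± 0.084 (11.1 and 10.5 to 12 and 13.5 CPM, edgeR adjusted p = 0.011), which was lost by DESeq2 (adjusted p = 0.0635) and without replicate 2 of either KO group (edgeR adjusted p = 0.0927 at 1w and 0.168 at 3w). The calls of Pars2 and Vars2 (0.35 and 0.26) were also lost by DESeq2, with adjusted p = 0.128 and 0.106, and each also without at least 1 single KO library, with edgeR adjusted p up to 0.236 for Pars2 and 0.147 for Vars2. For the cytosolic Nars (0.13) and Sars (0.11) the highest such value was 0.128 (without replicate 1 of KO at 1w) and 0.146 (without replicate 2 of KO at 1w).

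**Figure D2:**
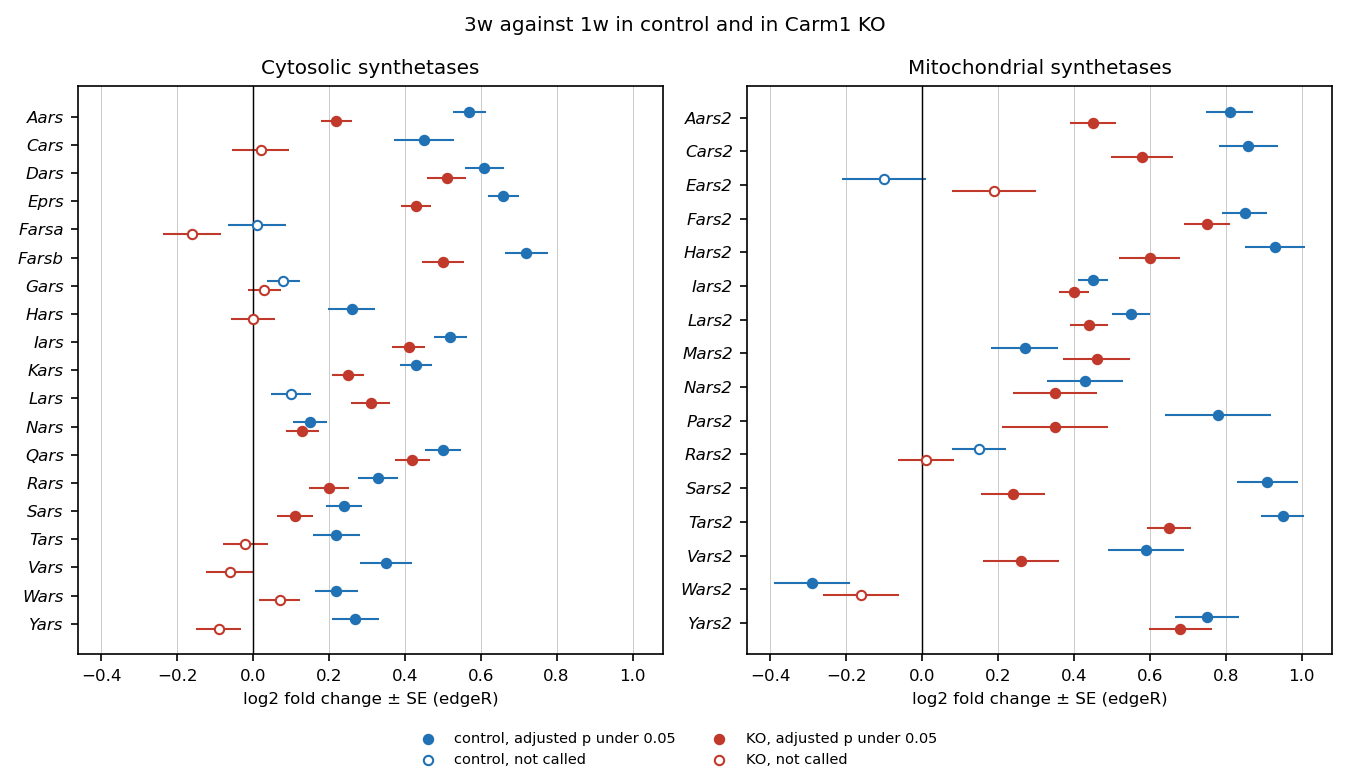
Log2 fold change of 3w against 1w in control and in KO, with its SE, for each cytosolic and each mitochondrial gene; filled points were called at an adjusted p under 0.05. Most points lie to the right of 0, Wars2 to its left in both genotypes, and the cytosolic KO points cluster nearer to 0 than the control points.

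At 1w a set of cytosolic enzymes was higher in KO than in control. Of the 19 genes 7 were higher and 1 was lower in KO than in control, against a background of 43% of all tested genes called, 23% higher and 20% lower, with a median log2 fold change of 0.08. None of the 16 mitochondrial genes rose by edgeR (0 also at an unadjusted p under 0.05 and by DESeq2) and 4 fell, with a median of -0.10. These 4 are 25.0% of the class, a share near the 20% of all genes tested that were lower. The median over all genes tested was 0.02 (log2). The KO and control libraries did not overlap in 27 of the 37 genes, a share near that over all genes tested (70.6%), so a lack of overlap in a gene is the usual case here.

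Aars (ENSMUSG00000031960, chromosome 8, 111033144 to 111057664, plus strand, GRCm38) showed the largest rise of the cytosolic genes. It stood at 53.1 and 50.8 CPM in control and at 69.5 and 68.9 CPM in KO (log2 fold change 0.42 ± 0.043, edgeR adjusted p = 1.1e-12). Both KO libraries were above both control libraries. Aars shares 14.3% of its exon bases with Exosc6 on the same strand, and reads from the shared stretch cannot be assigned to 1 of the 2 genes. Vars, the valyl enzyme, which binds the elongation factor eEF1, was at 17.1 and 20.6 CPM in control and 25.4 and 24.8 in KO (0.39 ± 0.066, edgeR adjusted p = 1.2e-06). The tyrosyl enzyme Yars was at 20.6 and 20.4 CPM in control and 27.2 and 26.0 in KO (0.38 ± 0.061, edgeR adjusted p = 5.4e-07). Cars was at 12.2 and 11.4 CPM in control and 14.3 and 14.8 in KO (0.31 ± 0.078, edgeR adjusted p = 0.00083). None of these 3 overlapped between the groups, and all 4 genes named so far kept their call in each of the 16 alternative settings.

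Hars (24.1 and 25.8 CPM in control, 29.3 and 27.3 in KO, log2 fold change 0.18), the tryptophanyl enzyme Wars (0.17) and Farsb (0.16) were called with smaller changes. All 3 lost the call by DESeq2, with adjusted p between 0.105 and 0.152, and without replicate 1 of control at 1w, where edgeR gave adjusted p = 0.133 for Hars, 0.210 for Wars and 0.118 for Farsb. The count of higher cytosolic genes was then 4. Hars was also lost without replicate 1 of KO at 1w (edgeR adjusted p = 0.233), Wars without replicate 2 of that group (0.103, adjusted likewise) and Farsb without any single KO library (edgeR adjusted p between 0.0538 and 0.131). Farsb shares 9.5% of its exon bases with Sgpp2 on the opposite strand. Lars fell, from 43.9 and 39.9 CPM to 36.2 and 34.4 (-0.24 ± 0.052, edgeR adjusted p = 0.00013), and both KO libraries lay below both control libraries. The 11 cytosolic genes that were not called lay between -0.08 and 0.13 (log2).

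The 4 mitochondrial genes that fell at 1w were Ears2, Rars2, Iars2 and Fars2. Ears2 charges glutamate, and in mitochondria also makes the precursor of glutaminyl-tRNA. It was at 9.15 and 8.17 CPM in control and 6.49 and 6.54 in KO (log2 fold change -0.40 ± 0.11, edgeR adjusted p = 0.0017). Rars2, the arginyl enzyme, was at 19.2 and 21.6 CPM in control and 18 and 16 in KO (-0.27 ± 0.071, edgeR adjusted p = 0.0017). The isoleucyl enzyme Iars2 was at 84.9 and 83.1 CPM in control and 71.6 and 71.5 in KO (-0.23 ± 0.040, edgeR adjusted p = 2.5e-06). Fars2 was at 28.6 and 27.5 CPM in control and 24.8 and 23.4 in KO (-0.21 ± 0.064, edgeR adjusted p = 0.0055). In all 4 the KO libraries lay below the control libraries. The calls of Ears2 and Iars2 held in each of the 16 alternatives. Without replicate 2 of KO at 1w the call was lost for Rars2 (edgeR adjusted p = 0.0932) and Fars2 (0.0889, also adjusted), and that of Rars2 also without replicate 2 of control at 1w (edgeR adjusted p = 0.161). Iars2 shares 22.9% of its exon bases with Rab3gap2 on the opposite strand, so part of its count could belong to that gene if the counting ignored strand. The other 12 mitochondrial genes lay between -0.21 and 0.12 (log2) and were not called.

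At 3w the picture was a fall of the mitochondrial enzymes. Of the 16 genes 12 were lower in KO than in control and 0 were higher (0 also at an unadjusted p under 0.05 and by DESeq2, which called 10 lower), with a median log2 fold change of -0.29. Over all genes tested 49.2% were called, 24.8% lower and 24.4% higher, with a median of 0.01. Of the 19 cytosolic genes 3 were lower and 0 higher (again 0 at an unadjusted p under 0.05 and by DESeq2), a share of 15.8% lower that lies under the background, with a median of -0.06. The KO and control libraries did not overlap in 28 of the 37 genes, beside 72.6% of all genes tested.

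Sars2 (ENSMUSG00000070699, chromosome 7, 28741992 to 28753871, plus strand, GRCm38) showed the largest fall. It was at 19.3 and 18.3 CPM in control and 12 and 13.5 in KO (log2 fold change -0.56 ± 0.079, edgeR adjusted p = 1.1e-08). Cars2 was at 23.9 and 21.0 CPM in control and 17.2 and 16.8 in KO (-0.41 ± 0.076, edgeR adjusted p = 6.6e-06). For Rars2 the levels were 21.6 and 24.2 CPM in control and 17.2 and 17.1 in KO (-0.41 ± 0.073, edgeR adjusted p = 3.8e-06). Each of these genes had both KO libraries below both control libraries. The valyl enzyme Vars2 was at 9.82 and 10.1 CPM in control and 7.84 and 7.11 in KO (-0.41 ± 0.098, edgeR adjusted p = 0.00031). Tars2 was at 42.0 and 43.6 CPM in control and 32.6 and 32.5 in KO (-0.39 ± 0.054, edgeR adjusted p = 7.6e-09). Pars2, the least counted of the 37, was at 5.79 and 5.34 CPM in control and 3.95 and 4.67 in KO (-0.37 ± 0.13, edgeR adjusted p = 0.014). None of these 3 overlapped between the groups either, but the call of Pars2 was lost by DESeq2 (adjusted p = 0.128) and without replicate 1 of control at 3w or of KO at 3w (edgeR adjusted p = 0.132 and 0.167).

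Smaller falls at 3w were called for Fars2 (-0.32), Hars2 (-0.29), Iars2 (-0.28), Aars2 (-0.25), the asparaginyl enzyme Nars2 (-0.24) and the leucyl enzyme Lars2 (-0.21). Nars2 was at 9.94 and 13.2 CPM in control and 9.64 and 9.62 in KO, and without replicate 2 of control at 3w its log2 fold change was -0.07 (edgeR adjusted p = 0.633). DESeq2 did not call it either (adjusted p = 0.153), nor did edgeR without either KO library at 3w (adjusted p = 0.112 and 0.114) or without either at 1w (0.0504, adjusted, in both cases). Vars2 and Fars2 share 8.5 and 8.7% of their exon bases with a gene on the opposite strand. The other 10 of the 12 kept their call in each of the 16 alternatives. Ears2 (-0.10), Mars2 (-0.03), Yars2 (-0.10) and Wars2 (0.06) were not called at 3w. Of the 4 mitochondrial genes that fell at 1w, Fars2, Iars2 and Rars2 also fell at 3w, which is 75% of the 1w calls and 25% of the 3w calls. Of the 13 mitochondrial genes that rose from 1w to 3w in control, 11 were among the 12 that were lower in KO at 3w, but both comparisons use the control libraries at 3w.

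The 3 cytosolic genes that fell at 3w were Eprs, Qars and Kars, all members of the multi-synthetase complex. Eprs was at 115 and 120.3 CPM in control and 105 and 104 in KO (log2 fold change -0.17 ± 0.038, edgeR adjusted p = 0.00022). Qars was at 59.7 and 60.7 CPM in control and 52.9 and 54.6 in KO (-0.16 ± 0.045, edgeR adjusted p = 0.0020). Kars was at 91.2 and 88.4 CPM in control and 81.0 and 82.8 in KO (-0.13 ± 0.041, edgeR adjusted p = 0.0051). Their KO libraries lay below the control libraries, and the 3 calls held in each of the 16 alternatives. The other 16 cytosolic genes lay between -0.13 and 0.07 (log2), among them Aars at 0.07, Vars at -0.02, Yars at 0.01 and Cars at -0.12.

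**Figure D3:**
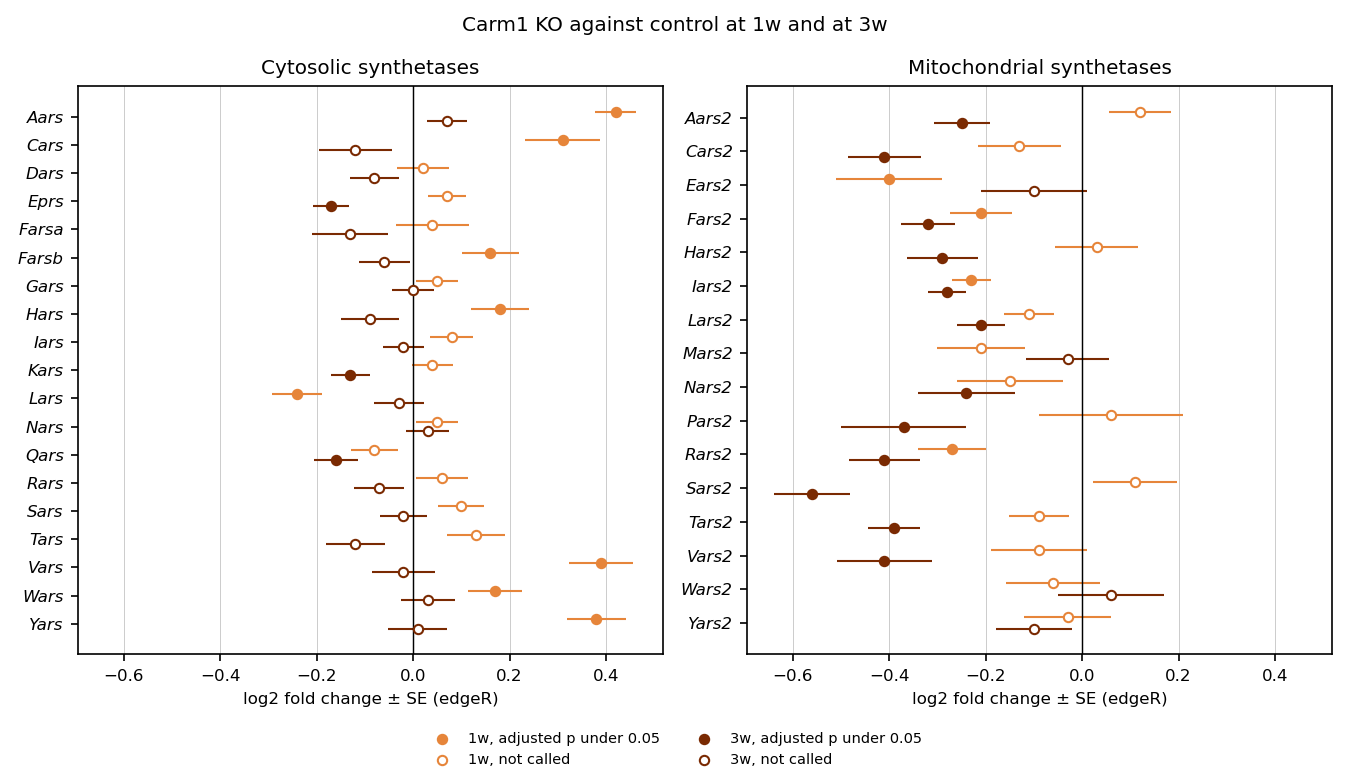
Log2 fold change of KO against control at 1w and at 3w, with its SE, for each cytosolic and each mitochondrial gene; filled points were called at an adjusted p under 0.05. In the cytosolic panel the filled 1w points lie right of 0 except Lars, and in the mitochondrial panel the filled points of both times lie left of 0.

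Over both times together, in an additive fit in which a difference between the 2 KO effects counts as spread, 6 mitochondrial genes were lower in KO and 0 higher (0 at an unadjusted p under 0.05 and 0 by DESeq2), against a background of 30.7% of all genes called, 14.5% lower and 16.3% higher. All 16 had a fitted log2 fold change below 0, with a median of -0.22. The 6 were Rars2 (-0.34 ± 0.070, edgeR adjusted p = 0.0068), Cars2 (-0.27), Fars2 (-0.27), Iars2 (-0.26 ± 0.040, edgeR adjusted p = 0.0018), Tars2 (-0.25) and Lars2 (-0.16). In Rars2, Iars2, Fars2, Tars2 and Lars2 the KO libraries lay below the control libraries at both times, while Cars2 overlapped at 1w. Groups that do not overlap were the usual case, with 70.6% of all genes tested at 1w and 72.6% at 3w. The calls of Rars2, Iars2 and Fars2 held in each of the 16 alternatives. Leaving out replicate 1 or replicate 2 of KO at 3w left 3 lower genes, since Cars2, Tars2 and Lars2 then had edgeR adjusted p between 0.0509 and 0.103. Cars2 and Lars2 also lost the call without replicate 1 of KO at 1w, replicate 2 of control at 1w or replicate 1 of control at 3w, and Cars2 without replicate 2 of control at 3w (edgeR adjusted p between 0.0646 and 0.105). Of the cytosolic genes 1 was higher, Aars (0.24 ± 0.069, edgeR adjusted p = 0.027), and 0 were lower by edgeR (2 at an unadjusted p under 0.05, and 1, Qars, by DESeq2). The call of Aars was lost without any single library of the 1w groups (edgeR adjusted p between 0.0720 and 0.0831).

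The KO effect at 3w less that at 1w was tested gene by gene. Of the cytosolic genes 9 of 19 had a lower KO effect at 3w and 1 a higher one, against 35.6% of all genes tested called, 17.9% lower and 17.6% higher. Cars (-0.43 ± 0.11, edgeR adjusted p = 0.0012), Vars (-0.42 ± 0.093, 0.00024 after the same adjustment), Yars (-0.37), Aars (-0.35) and Eprs (-0.23) kept their call in each of the 15 alternatives run for this difference. The calls of Hars, Tars, Farsb and Kars (-0.26 to -0.17) were each lost by DESeq2, which left 5 lower cytosolic genes, and without replicate 1 of KO at 3w, which also left 5. Each of these 4 was lost as well without at least 1 other single library: Hars without replicate 1 of KO at 1w, Tars without that library, replicate 2 of control at 1w or replicate 2 of control at 3w, Farsb without replicate 2 of KO at 1w, replicate 1 of control at 1w or replicate 2 of control at 3w, and Kars without replicate 2 of KO at 1w or replicate 1 of control at 3w (edgeR adjusted p between 0.0631 and 0.195). For Lars the effect went up by 0.21, a call lost by DESeq2 (adjusted p = 0.139) and without replicate 1 of control at 1w, replicate 2 of KO at 1w or replicate 2 of KO at 3w (edgeR adjusted p between 0.138 and 0.160). Of the 7 cytosolic genes that were higher in KO at 1w, 6 were among the 9, although these comparisons share the 1w libraries. Of the mitochondrial genes 4 of 16 had a lower effect at 3w and 0 a higher one (0 at an unadjusted p under 0.05 and by DESeq2). These were Sars2 (-0.67 ± 0.12, edgeR adjusted p = 3.5e-06), Aars2 (-0.36), Hars2 (-0.33) and Tars2 (-0.30). Hars2 lost the call by DESeq2 (adjusted p = 0.134) and without replicate 1 of control at 3w, replicate 2 of KO at 1w or replicate 1 of KO at 3w (edgeR adjusted p between 0.0546 and 0.150). For 13 of the 16 mitochondrial genes the fitted difference was below 0, and the median was -0.12.

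Adding up each class gives its total message. At 1w the 19 cytosolic genes summed to 731 and 729.7 CPM in the control libraries and to 781 and 788 in the KO libraries. At 3w these sums were 945 and 960.0 CPM in control and 908 and 922 in KO. KO libraries were thus above control at 1w and below it at 3w, with no overlap. The 16 mitochondrial genes summed to 299.9 and 300.4 CPM in control and 273 and 272 in KO at 1w, and to 453 and 450.2 CPM in control and 363 and 377 in KO at 3w. KO libraries lay below control at both times. As a share of both classes, the mitochondrial genes took 29.1 and 29.2% in control against 25.9 and 25.7% in KO at 1w. At 3w they took 32.4 and 31.9% in control against 28.6 and 29.1% in KO. The shares in KO at 3w came close to those in control at 1w. After rounding, replicate 2 of KO at 3w and replicate 1 of control at 1w both stood at 29.1%. These shares weight each gene by its length and were not tested.

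**Figure D4:**
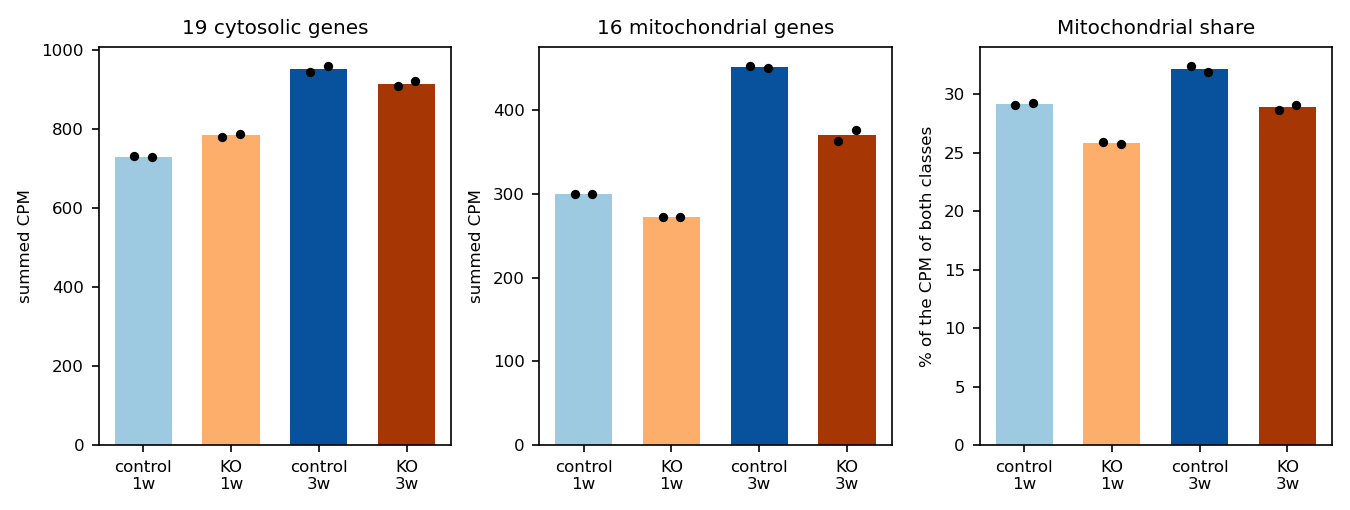
Summed CPM of the 19 cytosolic genes, of the 16 mitochondrial genes, and the mitochondrial share of both in percent. Bars are the mean of the 2 libraries of a group and points the libraries; the mitochondrial sum is lower in KO at 1w and at 3w, and the cytosolic sum is higher in KO at 1w and lower at 3w.

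For 12 amino acids the 37 genes hold 1 cytosolic gene and 1 mitochondrial gene that serve that amino acid alone, which allows each mitochondrial gene to be set against its cytosolic counterpart within a library. Phenylalanine, with 2 cytosolic subunit genes, and glutamate and proline, which share Eprs in the cytosol, also have both kinds of enzyme and were left out of these pairs. At 1w the log2 KO effect was lower in the mitochondrial than in the cytosolic gene for 10 of the 12 amino acids, higher for leucine and equal for serine, with a median difference of -0.26. At 3w it was lower for 11 and higher for tryptophan, with a median of -0.28, and over both times it was lower for all 12, with a median of -0.28. The valine pair differed most at 1w (-0.48), followed by cysteine (-0.44) and tyrosine (-0.40). The serine pair differed most at 3w (-0.54), followed by valine (-0.39) and arginine (-0.34). Per kilobase, Vars2 ran at 0.364 ± 0.048 of the level of Vars in control at 1w (mean ± SD, n = 2 libraries) and at 0.254 ± 0.0030 in KO at 1w, and at 0.418 ± 0.00093 and 0.319 ± 0.014 in control and KO at 3w. The ratio of Tars2 to Tars was 0.798 ± 0.031 in control and 0.684 ± 0.0089 in KO at 1w, and 1.31 ± 0.037 and 1.09 ± 0.046 at 3w, so that in both genotypes the mitochondrial gene passed the cytosolic one by 3w. For Sars2 to Sars it was 0.335 ± 0.010 in both groups at 1w, and at 3w it was 0.530 ± 0.020 in control and 0.365 ± 0.040 in KO. No test across the pairs was run.

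**Figure D5:**
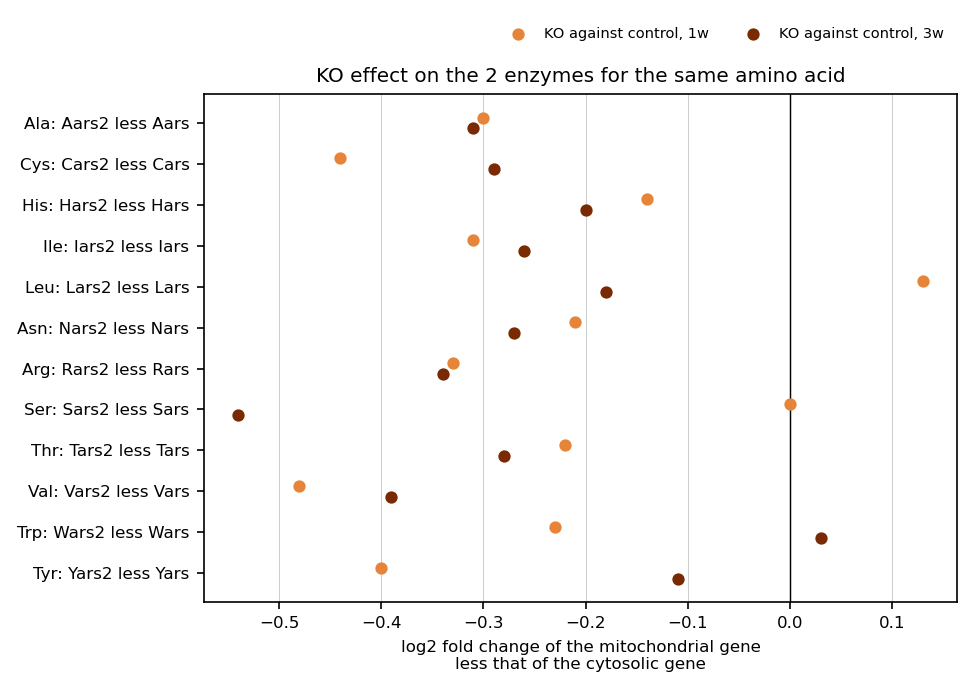
KO effect (log2 fold change) of the mitochondrial gene less that of the cytosolic gene for the 12 amino acids with a single gene of each kind (phenylalanine, glutamate and proline left out), at 1w and at 3w. Points left of 0 have the lower KO effect in the mitochondrial gene: all but leucine and serine at 1w and all but tryptophan at 3w.

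Aimp1 (p43), a scaffold that is also processed to a secreted cytokine, fell in KO. It was at 27.1 and 25.9 CPM in control and 24.6 and 22.4 in KO at 1w (log2 fold change -0.16 ± 0.061, edgeR adjusted p = 0.024), and at 33.4 and 34.8 in control and 25.2 and 27.5 in KO at 3w (-0.37 ± 0.060, edgeR adjusted p = 4.7e-07). KO libraries lay below control libraries at both times. The call at 1w was lost by DESeq2 (adjusted p = 0.119) and without replicate 1 of control at 1w or replicate 2 of KO at 1w (edgeR adjusted p = 0.124 and 0.318), while those at 3w and over both times (-0.27 ± 0.063, edgeR adjusted p = 0.011) held in each of the 16 alternatives. Aimp2 (p38), the core scaffold, was at 13.7 and 12.8 CPM in control and 12.9 and 15.1 in KO at 1w, and at 21.0 and 18.2 in control and 20.3 and 20 in KO at 3w, with overlapping groups at both times and log2 fold changes of 0.08 and 0.03. From 1w to 3w both scaffolds rose, Aimp1 by 0.37 in control and 0.16 in KO and Aimp2 by 0.59 and 0.54. The rise of Aimp1 in KO was lost by DESeq2 (adjusted p = 0.0702) and without replicate 2 of KO at 1w or at 3w (edgeR adjusted p = 0.243 and 0.183). Aimp2 shares 29.4% of its exon bases with Eif2ak1 on the opposite strand.

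The cytosolic genes were also read by membership of the complex, a grouping chosen after the values were known and given as a description. Over all genes tested 23% were higher and 20% lower at 1w, and 24.8% lower at 3w. The 7 enzymes of the complex among the 37 genes (Dars, Eprs, Iars, Kars, Lars, Qars and Rars) included 0 of the 7 genes that were higher in KO at 1w and all 4 cytosolic genes that were lower at 1w or 3w. Mars1, a complex enzyme that is not among the 37 genes, goes against this split, since it was higher in KO at 1w (0.22, edgeR adjusted p = 0.00079). All 12 enzymes outside the complex had a fitted effect above 0 at 1w, with a median log2 fold change of 0.16, against 0.04 for the 7 inside it. At 3w the medians were -0.02 outside and -0.08 inside. The summed level of the 12 was 379 and 393 CPM in control and 440.4 and 438 in KO at 1w. At 3w it was 468 and 479 CPM in control and 466 and 473 in KO. That of the 7 was 352 and 337 CPM in control and 341 and 349.6 in KO at 1w, with overlap, and 477 and 481 in control and 441 and 448 in KO at 3w. Looked at in the same way, the 7 mitochondrial enzymes of the class II fold (Aars2, Fars2, Hars2, Nars2, Pars2, Sars2 and Tars2) were all lower in KO at 3w, against 5 of the 9 of the class I fold and 24.8% of all genes. This contrast rests in part on Nars2 and Pars2, whose calls were lost by DESeq2 (adjusted p = 0.153 and 0.128). Without replicate 2 of control at 3w the log2 fold change of Nars2 was -0.07.

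The RefSeq promoter table (GRCm38.p6, 250 bases before to 50 after each start) held 28 of the 37 genes, 12 cytosolic, 14 mitochondrial and both scaffolds. The C/EBP-ATF response element, to which Atf4 binds together with C/EBP proteins, was searched as TTGCATCA on both strands. It occurred in 4 of the 12 cytosolic promoters (Aars, Iars, Tars and Yars), in 0 of the 14 mitochondrial ones and in 0 of the 2 scaffold ones, against 1.03% of 27025 genes. The matches of Iars, Tars and Yars are shown because no mitochondrial or scaffold promoter in the table held the element, with the element in capitals, on the gene's own strand from 5′ to 3′. Around the start sites of Iars and Yars the stretch is kept to the site itself with 10 bases on each side. In Yars the capitals are the reverse complement.

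Iars, chr13:49682127-49682154, plus strand: actgtcagtaTTGCATCAcctccagacg
Tars, chr15:11399659-11399713, minus strand: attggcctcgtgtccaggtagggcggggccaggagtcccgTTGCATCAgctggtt
Yars, chr4:129189896-129189923, plus strand: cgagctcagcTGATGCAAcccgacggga

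At 1w Aars and Yars were higher in KO, as described, while Tars (0.13 ± 0.060, edgeR adjusted p = 0.081) and Iars (0.08 ± 0.044, edgeR adjusted p = 0.12) were not called. Of the other cytosolic genes that rose, Farsb was in the table without the element, and the promoters of Cars, Hars, Vars and Wars were not used here. With the looser form TTNCATCA, which contains the first, Gars was added to the 4, against 4.51% of all genes. The E-box CACGTG was found in Aars, Farsb, Iars and Tars and in the mitochondrial Ears2, against 8.09% of all genes.

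Among the mitochondrial promoters, the core of the site of NRF1, a factor known to act on nuclear genes for mitochondrial proteins, was searched as GCATGCGC on both strands. It occurred in 3 of the 14 (Rars2, Vars2 and Wars2), in 0 of the 12 cytosolic promoters and in 0 of the 2 scaffold ones, against 3.05% of 27025 genes. The 3 matches are shown, with the core in capitals, because no other motif searched occurred in more than 1 mitochondrial promoter. At 3w Rars2 and Vars2 fell in KO and Wars2 was not called. In Wars2 the capitals are the reverse complement, and Vars2 holds the core in 2 places.

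Rars2, chr4:34614866-34614953, plus strand: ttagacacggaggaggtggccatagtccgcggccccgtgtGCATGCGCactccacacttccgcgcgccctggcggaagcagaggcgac
Vars2, chr17:35667593-35667678, minus strand: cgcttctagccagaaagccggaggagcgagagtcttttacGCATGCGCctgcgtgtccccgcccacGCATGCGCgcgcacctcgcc
Wars2, chr3:99140986-99141073, plus strand: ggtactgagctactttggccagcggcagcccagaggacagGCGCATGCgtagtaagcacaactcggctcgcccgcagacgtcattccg

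The ETS motif CCGGAAGT was found in Farsa, Rars2 and Aimp1 (4.31% of all genes), the ERR motif AAGGTCA in Aimp2 (5.38%), the YY1 motif in Yars2 (0.755%), and the cAMP response element TGACGTCA in none of the 28 (2.03%). These matches are descriptions of the sequence in these windows.

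The remaining genes of tRNA charging were read from a list of 12, of which 9 could be tested. Gatb, Aarsd1 and Pstk were listed at 0 in every library. At 1w 1 of the 9 was higher in KO and 1 lower, shares that lie under the 23% higher and 20% lower over all genes tested. Mars1, the cytosolic methionyl enzyme and also a member of the complex, rose from 30.9 and 27.9 to 34.5 and 33.3 CPM (log2 fold change 0.22, edgeR adjusted p = 0.00079), and Dtd1, which removes D-amino acids from tRNA, fell by 0.34 (edgeR adjusted p = 0.013). At 3w 3 were lower in KO, and Eef1e1, the third scaffold of the complex, was higher (0.43). Tars3, another threonyl enzyme, and Qrsl1, a subunit of the mitochondrial amidotransferase that finishes glutaminyl-tRNA, each fell by 0.34 at 3w, and Gatc, the partner of Qrsl1, fell by 0.18.

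Next to the mitochondrial enzymes act the mitochondrial translation factors and the genes of mitochondrial tRNA maturation. Of 9 mitochondrial translation factors 7 were lower in KO at 3w and 1 higher, beside 24.8% of all genes tested lower and 24.4% higher, with a median log2 fold change of -0.26. Tufm, the elongation factor that carries charged tRNA to the mitochondrial ribosome, was at 178 and 176 CPM in control and 135 and 132 in KO (-0.41, edgeR adjusted p = 1.9e-15). The release factor Mtrf1l was at 6.82 and 6.89 CPM in control and 4.41 and 2.89 in KO (-0.91, edgeR adjusted p = 5.5e-08), and the exception was Gfm2 (0.11, edgeR adjusted p = 0.026), a factor of ribosome recycling. At 1w 2 of the 9 were lower and 1 higher, beside 20% of all genes lower and 23% higher. Of 12 genes for mitochondrial tRNA maturation 6 were lower, 5 not called and 1, Pus1, higher (0.66) at 3w, and 4 were lower and 1 higher at 1w, where the shares over all genes are those just given. Trmt5, a tRNA methyltransferase, stood apart, at 30.9 and 28.2 CPM in control and 12.9 and 14.7 in KO at 1w and at 27.3 and 27.4 in control and 14.8 and 14.5 in KO at 3w (-1.10 and -0.90, edgeR adjusted p = 1.0e-21 and 2.8e-17). Trmu, which modifies the wobble base of mitochondrial tRNAs, fell by 0.57 at 3w and was at 0.17 (edgeR adjusted p = 0.11) at 1w.

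On the cytosolic side, 4 of 12 translation factors tested were higher in KO and 0 lower at 1w, beside 23% higher and 20% lower over all genes tested, and 1 was higher and 6 lower at 3w, beside 24.4% and 24.8%. Eif2s2, also in that list, was listed at 0 in every library. Eef1g, a subunit of the eEF1 complex to which Vars binds, was at 122 and 125 CPM in control and 140.5 and 140.0 in KO at 1w (log2 fold change 0.18, edgeR adjusted p = 1.6e-05) and fell by 0.10 at 3w. The muscle form of elongation factor 1 alpha, Eef1a2, rose from 345 and 375 CPM at 1w to 1159.7 and 1154 at 3w in control, and was at 895 and 880.3 CPM in KO at 3w. The general form Eef1a1 went from 1178 and 1138 to 227 and 224 CPM in control and was at 340.1 and 350.4 CPM in KO at 3w.

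Of 32 genes of the amino acid response, 28 could be tested. At 1w 16 were higher in KO and 4 lower, with a median log2 fold change of 0.53, beside 23% of all genes higher and 20% lower. At 3w 16 were higher and 9 lower, with a median of 0.29, beside 24.4% and 24.8% of all genes. Atf4 itself was at 87.0 and 88.3 CPM in control and 97.9 and 103 in KO at 1w (0.20, edgeR adjusted p = 2.5e-05), and at 104 and 105 in control and 94.3 and 95.5 in KO at 3w (-0.14, edgeR adjusted p = 0.0015). The message of Atf4 was thus above control at 1w and below it at 3w, like the cytosolic sum. A link between Atf4 and that sum was not tested. The related factor Atf5 was higher at both times (0.73 and 0.45). Mthfd2, a mitochondrial folate enzyme, was at 1.80 and 2.19 CPM in control and 5.66 and 6.22 in KO at 1w (1.54), and at 1.36 and 1.24 in control and 4.48 and 5.09 in KO at 3w (1.87). Gdf15, a secreted stress hormone, was at 0.672 and 0.793 CPM in control and 2.13 and 2.04 in KO at 1w, and at 0.358 and 0.565 in control and 9.64 and 9.13 in KO at 3w (4.40, edgeR adjusted p = 8.9e-29). Asns, which makes asparagine, was higher at 3w (1.42) and not called at 1w (0.22, edgeR adjusted p = 0.19). The amino acid carriers Slc38a2 and Slc7a1 fell at both times (-0.50 and -0.18, and -0.42 and -0.71). By edgeR at 3w, 16 of the 28 genes were called higher in KO and 9 lower. Of the 19 cytosolic synthetases 0 were called higher and 3 lower, by edgeR and by DESeq2. A relation between the 2 lists was not tested.

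Levels of other cell types moved with the KO and with time. In bulk RNA, fewer cells of a type and less RNA per cell cannot be told apart. The 8 fibroblast markers, of which Tcf21 was listed at 0 in every library, summed to 1226 to 1228 CPM in control and 2264 to 2288 in KO at 1w, and to 277 to 278 and 613 to 623 at 3w. The 8 macrophage markers summed to 39.0 to 39.7 CPM in control and 128 to 135 in KO at 1w and to 68.0 to 69.6 and 106 at 3w, and the 6 smooth muscle and pericyte markers to 1379 to 1426 and 2018 to 2039 at 1w and 806 to 839 and 1644 to 1647 at 3w. Endothelial markers (7 genes) lay at 744 to 759 and 867 to 874 CPM at 1w and at 293 to 304 and 347 to 358 at 3w, and epicardial markers (5 genes) at 23.5 to 24.5 and 39.5 to 40.8 at 1w and at 20.5 to 21.8 and 12.3 to 13.4 at 3w. Atrial markers (5 genes) were at 53.6 to 55.7 CPM in control and 591 to 597 in KO at 1w and at 164 to 168 and 586 to 600.0 at 3w, where 1 of the 5 was higher and 4 lower, and erythroid markers (5 genes, Alas2 at 0) at 54.8 to 76.9 and 25.9 to 27.3 at 1w and 121 to 132 and 156 to 160.1 at 3w. The 8 cardiomyocyte markers summed to 33942 to 34456 CPM in control and 32690.3 to 33009 in KO at 1w, and to 67955 to 72184 and 55528 to 56037 at 3w. The cardiomyocyte sum was thus lower in KO at 1w and at 3w, as was that of the mitochondrial synthetases, and rose from 1w to 3w with both classes. Of the 6 cardiomyocyte markers tested, 4 were lower and 1 higher in KO at 1w, and 5 lower and 0 higher at 3w. Over all genes tested 20% were lower and 23% higher at 1w, and 24.8% lower and 24.4% higher at 3w. The part of cardiomyocytes and of the other cell types in these results was not tested.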

How the data were processed

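Messenger RNA from isolated mouse cardiomyocytes was sequenced in 8 libraries. The authors deposited whole-number gene counts, which per the submitters' processing notes were made with HISAT2 on mm10 and featureCounts, with DESeq2 also named. The annotation, strand setting and versions were not given in the sources used here. GENCODE M21 named 54723 of 54752 IDs and gave exon lengths for RPKM. Genes were filtered with filterByExpr (minimum count 10, minimum total 15), which left 14665. Libraries were scaled by TMM (factors 0.759 to 1.23). Groups were compared by edgeR's quasi-likelihood test (robust) on 1 fit of the 4 groups (4 residual degrees of freedom, common coefficient of variation 3.03%), and KO over both times in an additive fit with 5. Benjamini-Hochberg adjustment ran over every tested gene, with calls at an adjusted p under 0.05. The members and gene lists were chosen with earlier results of these data known. Genes named by rule were up to 6 called genes with the largest change per class and comparison, both scaffolds, and up to 4 called genes of each other list; Farsb, Qrsl1, Gatc, Trmu, Eef1g, Atf4, Atf5, Asns, Slc38a2 and Slc7a1 were in part named beyond that rule, after their values were seen. The procedure was tested on simulated counts. Software was R 4.3.3, edgeR 4.0.16, limma 3.58.1 and DESeq2 1.42.0. Near copies were sought with blastn. Alternatives were other size factors, DESeq2, other filters and fits, a replicate block and leaving out each library. Some values and a sequence are not reported here.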

Additional observations from a re-analysis of the deposited data

Results flagged for a closer look

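For 14 of the 37 genes the KO effect at 3w differed from that at 1w in a test of the difference itself. This was edgeR's quasi-likelihood test at an adjusted p under 0.05, in 2 libraries per group. The share is near the 35.6% of all genes tested that passed in either direction. By direction, 13 of the 37 (35.1%) were lower and 1 (2.7%) higher, beside 17.9% lower and 17.6% higher over all genes tested. Among the cytosolic genes the log2 KO effect at 3w less that at 1w was -0.43 for Cars, -0.42 for Vars, -0.37 for Yars, -0.35 for Aars, -0.26 for Hars, -0.24 for Tars, -0.23 for Eprs, -0.22 for Farsb and -0.17 for Kars, and 0.21 for Lars. Among the mitochondrial genes it was -0.67 for Sars2, -0.36 for Aars2, -0.33 for Hars2 and -0.30 for Tars2. In Aars, Cars, Hars, Vars, Yars and Farsb a rise in KO at 1w was followed by a log2 fold change between -0.12 and 0.07 at 3w. The presence of Y-linked transcripts also differs between KO and control in opposite directions at the 2 times, and the 2 cannot be told apart.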

How the results depend on the processing

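No fitted effect of a called gene changed sign in any alternative. With the replicate block, KO over both times called 0 cytosolic genes higher in place of 1 and 4 mitochondrial genes lower in place of 6, through Aars, Cars2 and Lars2, and every other count kept its value. Within a time, control and KO libraries with the same number carry the same injection day, and whether they are otherwise paired is not given. Deviations of libraries with the same number correlated between -0.022 and 0.008 over all genes tested. Such values do not exclude a pairing that shows in fewer genes. By DESeq2, KO at 1w called 4 cytosolic genes higher in place of 7, the difference between the KO effects called 5 lower and 0 higher in place of 9 and 1, and control at 3w against 1w called 0 mitochondrial genes lower in place of 1. KO over both times called 1 cytosolic gene lower, in place of 0, by DESeq2 and with its size factors in the edgeR fit. As the average of the effects at 1w and 3w, it called 4 cytosolic genes higher and 2 lower and 10 mitochondrial genes lower, since a difference between the times is then not counted as spread. Without a filter the difference between the KO effects called 0 cytosolic genes higher, and without a filter or with a stricter one 1 cytosolic gene, Farsa, was called lower at 3w in KO; the cause was not tested.

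Leaving out 1 library at a time gave, for KO at 1w, 4 to 8 cytosolic genes higher and 3 to 6 mitochondrial genes lower, and for KO at 3w, 3 to 4 cytosolic and 10 to 12 mitochondrial genes lower. Over both times it gave 0 to 1 cytosolic genes higher and 3 to 6 mitochondrial genes lower. From 1w to 3w it gave 16 to 18 cytosolic and 13 to 14 mitochondrial genes higher and 0 to 2 mitochondrial genes lower in control, and 9 to 11 cytosolic and 10 to 13 mitochondrial genes higher with 0 to 1 lower in each class in KO. For the difference between the KO effects it gave 5 to 10 cytosolic and 3 to 6 mitochondrial genes lower and 0 to 1 of each higher. A group left with 1 library is then assumed to vary like the others. Pars2, Ears2 and Nars2, which are among the genes with the lowest counts, have an SE of 0.10 to 0.15 on the log2 scale at 1w and at 3w. The SE is not a limit of detection, and effects above it can also go uncalled at this depth. Nars2 at 1w, at -0.15 ± 0.11, was not called (edgeR adjusted p = 0.25).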
